A study of Mus musculus with 12 samples.

Results

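The small leucine-rich proteoglycans described here are 7 genes, Dcn (decorin), Bgn (biglycan), Aspn (asporin), Lum (lumican), Fmod (fibromodulin), Prelp (prolargin) and Ogn (osteoglycin, also called mimecan). They were chosen by symbol, each symbol was matched to the table through its NCBI Gene ID, and all 7 were found among the 18079 genes listed. mRNA of left ventricular muscle was sequenced from 12 male C57BL/6 mice (C57BL/6J in the methods of the study), 3 in each of 4 groups. The DMSO+Sham mice received the solvent DMSO and a sham operation, the Hispidulin+Sham mice hispidulin and a sham operation, the DMSO+AB mice DMSO and banding of the descending aorta (AB, which overloads the left ventricle with pressure), and the Hispidulin+AB mice hispidulin and AB. Hispidulin, a plant flavone, was injected into the peritoneum daily at 20 mg/kg/day, beginning on the day ahead of the operation and lasting until tissue was taken. By the labels all mice were operated on at 8 weeks of age, and tissue was taken 4 weeks later, at 12 weeks. The methods of the study give a range of ages at the operation that begins at 8 weeks. The tissue was bulk muscle, so that fewer cells of a type and less RNA per cell cannot be told apart for any gene below.

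Small leucine-rich proteoglycans are secreted proteins of the extracellular matrix, built from a curved stack of leucine-rich repeats that binds collagen. They limit the width of collagen fibrils and space them, and several of them also hold growth factors such as TGF-beta in the matrix or act on cell-surface receptors. Decorin, biglycan and asporin form class I, of which decorin and biglycan carry chondroitin or dermatan sulphate chains and asporin carries none. Lumican, fibromodulin and prolargin belong to class II, whose members can carry keratan sulphate, and osteoglycin belongs to class III. In the heart these proteins are made mainly by fibroblasts, and matrix turnover is a known part of the response to pressure overload.

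The genes lie in clusters that reflect their shared descent. In the RefSeq gene order of GRCm38.p6, Prelp and Fmod are neighbours on chromosome 1, Dcn and Lum are neighbours on chromosome 10, Aspn and Ogn are separated only by Omd on chromosome 13, and Bgn stands alone on chromosome X. RefSeq promoter sequences were matched for 5 of the 7 genes, and 4 are shown, those of Bgn and Aspn, which rose after AB, of Fmod, which spanned the widest range of levels, and of Ogn, whose averaged difference after AB was nearest to 0. Each is the 250 bases ahead of the annotated start, 5′ to 3′ on the strand of the gene (plus for all 4). The bases right after the start were found in a GENCODE vM21 transcript for Aspn and Fmod but not for Bgn and Ogn, whose start is that of RefSeq alone. In GRCm38.p6 they are chrX:73483351-73483600 for Bgn, chr13:49544193-49544442 for Aspn, chr1:134037004-134037253 for Fmod and chr13:49607765-49608014 for Ogn. Capitals mark every match, on either strand, to the SMAD motif CAGAC, the AP-1 motif TGANTCA, the TEAD motif GGAATG or the TATA motif TATAAA.
Bgn: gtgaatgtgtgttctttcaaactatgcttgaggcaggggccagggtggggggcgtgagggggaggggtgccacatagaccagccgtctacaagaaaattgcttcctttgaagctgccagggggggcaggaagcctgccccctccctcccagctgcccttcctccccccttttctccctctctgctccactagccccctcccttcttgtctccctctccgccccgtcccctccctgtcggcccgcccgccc
Aspn: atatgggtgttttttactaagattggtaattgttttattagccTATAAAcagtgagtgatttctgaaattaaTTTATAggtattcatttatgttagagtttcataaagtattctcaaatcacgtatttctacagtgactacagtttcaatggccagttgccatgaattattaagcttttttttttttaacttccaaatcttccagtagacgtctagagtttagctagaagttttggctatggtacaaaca
Fmod: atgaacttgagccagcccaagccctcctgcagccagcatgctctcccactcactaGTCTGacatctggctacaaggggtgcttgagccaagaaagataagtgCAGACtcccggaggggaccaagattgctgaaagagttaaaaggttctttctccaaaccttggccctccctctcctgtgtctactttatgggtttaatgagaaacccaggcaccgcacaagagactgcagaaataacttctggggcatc
Ogn: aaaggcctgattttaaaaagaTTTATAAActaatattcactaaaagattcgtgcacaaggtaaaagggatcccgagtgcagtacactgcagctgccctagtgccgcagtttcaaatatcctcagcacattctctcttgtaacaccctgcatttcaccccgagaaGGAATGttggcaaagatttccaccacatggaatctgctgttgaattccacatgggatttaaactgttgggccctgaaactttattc
The Bgn promoter was 64.4% G and C, against a median of 52.4% over all RefSeq promoters, and held none of the 4 motifs. The Aspn promoter was 30.0% G and C and held 2 TATAAA matches, beginning 207 and 178 bases ahead of the start. In the Fmod promoter (51.2% G and C), 2 CAGAC matches began 195 and 148 bases ahead of the start. The Ogn promoter (42.0% G and C) held 1 GGAATG match and a pair of overlapping TATAAA matches on opposite strands. The Prelp promoter, which is not printed, was 55.6% G and C and held 1 CAGAC match. Among all 32851 promoters of this length 42.2% held CAGAC, 12.4% TATAAA, 12.6% GGAATG and 6.75% TGANTCA. A match describes letters and is not evidence that a factor binds.

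Levels are given as FPKM (fragments scaled by transcript length and by library size), as deposited. Summed over all genes they came to 535235 to 567027 in each library. Sequencing depth is unknown, which leaves counting error out of reach, and errors are SDs over 3 mice. Ventricular cardiomyocyte markers summed to between 42050 and 60310 FPKM in every library, and the pressure-response genes Nppa, Nppb, Myh7 and Acta1 to between 452 and 1566 in the 6 Sham libraries and between 3818 and 16340 in the 6 AB libraries. DMSO+AB replicate 1 had the lowest such sum of its group (4311, against 12730 and 16340). The atrial genes Myl7, Myl4 and Sln summed to 773.9 in Hispidulin+Sham replicate 3, 172.0 in DMSO+AB replicate 2 and 91.0 in Hispidulin+AB replicate 3, and to 39.99 or less in the other 9. Values without these 3 libraries are given beside the calls on the 7 genes and on the lists. Over all genes limma called 608 in DMSO+AB against DMSO+Sham, and 20 without them.

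Dcn was the most abundant of the 7 genes, with a mean of 320.2 FPKM over the 12 mice, a level above 98.5% of all genes listed. Bgn followed with 196.1 FPKM, although in the DMSO+AB group its mean was above that of Dcn (375 against 354 FPKM). Ogn (30.37), Lum (28.22) and Prelp (20.94) were next, and their ranges over the 12 mice overlapped, so that their order is not firm. Aspn averaged 14.48 FPKM and Fmod 4.36 FPKM. The span across the mice ran against this order at its ends. The highest mouse had 1.8 times the Dcn of the lowest, 6.38 times the Bgn, 8.02 times the Aspn and 92.2 times the Fmod.

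**Figure D1:**
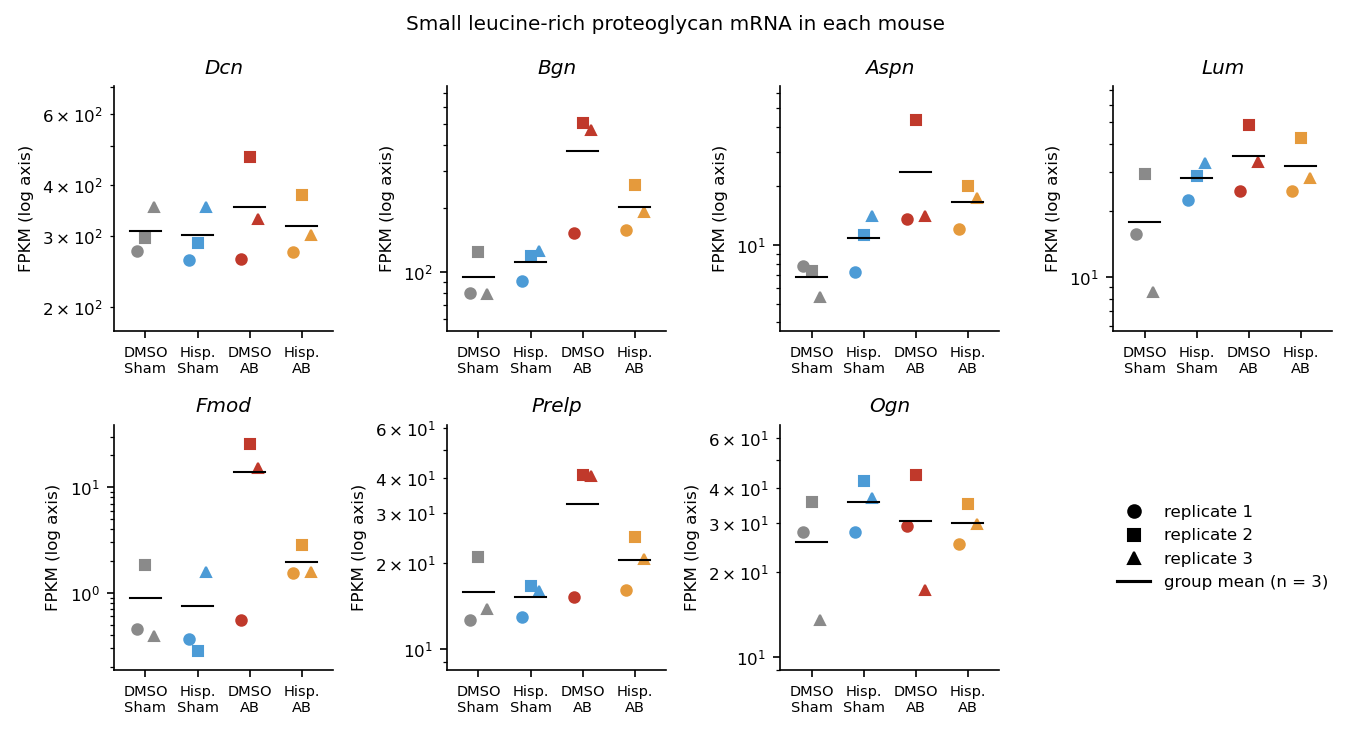
FPKM of each gene (vertical log axis, different range in each panel) in each of the 12 mice, by group, with 1 symbol shape per replicate number and a line at the group mean. Bgn in the 6 AB mice (153 to 505 FPKM) lies above Bgn in the 6 Sham mice (79.1 to 127 FPKM), whereas the groups overlap for Dcn and Ogn, and the red square of DMSO+AB replicate 2 is the highest point in every panel.

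Bgn, whose protein binds collagen I and TGF-beta and can signal through Toll-like receptors when released, rose after AB. Its level was 79.4, 125 and 79.1 FPKM in the 3 DMSO+Sham mice (94.5 ± 26.4, SD, n = 3) and 153, 505 and 468 FPKM in the 3 DMSO+AB mice (375 ± 193). All DMSO+AB mice were above all DMSO+Sham mice, with replicate 1 far below the other two. The difference was 1.83 on the log2(FPKM + 1) scale (SE 0.38, 95% interval 1.00 to 2.66), a 3.56-fold increase, with an adjusted p of 0.0221 by limma with Benjamini-Hochberg adjustment over 11664 genes. An exact two-sided permutation test gave p = 0.1, the smallest that 3 mice against 3 allow.

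Bgn was 90.4, 119 and 127 FPKM in the Hispidulin+Sham mice (112 ± 19.0, n = 3) and 159, 258 and 193 FPKM in the Hispidulin+AB mice (203 ± 50.4, n = 3). These groups did not overlap either, as for 9.14% of all genes higher in that comparison. The log2 difference was 0.84 (SE 0.38), with an unadjusted p of 0.0481 and an adjusted p of 0.677 by limma. Averaged over both treatments, Bgn was higher after AB by 1.33 on the log2 scale (SE 0.27, adjusted p = 0.0139 by limma), and an exact two-sided permutation test within each treatment gave p = 0.005, the smallest its 400 assignments allow. Of the 7 genes it alone had all 6 AB mice above all 6 Sham mice, as did 2.15% of all genes tested (2.8% had them all below).

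Aspn, which lacks sugar chains and binds collagen and TGF-beta, also rose. It was 7.77, 7.37 and 5.42 FPKM in DMSO+Sham (6.85 ± 1.26, n = 3) and 13.6, 43.5 and 14.0 FPKM in DMSO+AB (23.7 ± 17.1). The groups did not overlap, and replicate 2 stood well above the other DMSO+AB mice. The log2 difference was 1.46 (SE 0.38, 2.74-fold, adjusted p = 0.0471 by limma). In the hispidulin groups Aspn was 7.26, 11.3 and 14.1 FPKM after sham and 12.0, 20.0 and 17.4 FPKM after AB. Those groups overlapped, and the log2 difference of 0.57 (SE 0.38) did not pass (adjusted p = 0.843 by limma). Averaged over both treatments the log2 difference was 1.01 (SE 0.27, adjusted p = 0.0407 by limma).

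Dcn, whose protein coats collagen fibrils and can bind TGF-beta and several receptor kinases, showed overlapping levels in every group. It was 275, 296 and 355 FPKM in DMSO+Sham (308 ± 41.3, n = 3), 261, 288 and 353 FPKM in Hispidulin+Sham (301 ± 47.3), 262, 470 and 329 FPKM in DMSO+AB (354 ± 106) and 273, 379 and 301 FPKM in Hispidulin+AB (318 ± 55.1). DMSO+AB replicate 2 was the highest and Hispidulin+Sham replicate 1 the lowest. The log2 difference between DMSO+AB and DMSO+Sham was 0.16 (SE 0.20, 95% interval -0.28 to 0.60, adjusted p = 0.691 by limma), and averaged over both treatments it was 0.12 (SE 0.14). The upper end of the averaged interval was 0.43 for Dcn, below the lower end of 0.75 for Bgn.

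Fmod, a regulator of collagen fibril assembly that is prominent in tendon, had the widest range. It was 0.46, 1.84 and 0.39 FPKM in DMSO+Sham (0.897 ± 0.818, n = 3), 0.37, 0.28 and 1.59 FPKM in Hispidulin+Sham (0.747 ± 0.732), 0.55, 25.8 and 15.1 FPKM in DMSO+AB (13.8 ± 12.7) and 1.53, 2.82 and 1.59 FPKM in Hispidulin+AB (1.98 ± 0.728). High values were found in DMSO+AB replicates 2 and 3, while replicate 1 of that group was within the DMSO+Sham range. The log2 difference between DMSO+AB and DMSO+Sham was 2.29 (SE 0.80, 95% interval 0.55 to 4.02), the largest of the 7 genes, and did not pass the adjustment (adjusted p = 0.126 by limma). The Sham levels were near 1 FPKM, where the added 1 of the log scale understates a change.

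The tendon marker Tnmd moved with Fmod, at 0, 2.9 and 1.59 FPKM in the DMSO+AB mice and at 0.36 or less in the other 9 mice. Of the 5 valve and tendon markers, Mkx and Hapln1 were at 0.11 FPKM or less in all mice, Scx was 5.86, 13.4 and 16.6 FPKM in DMSO+AB and 5.53, 7.75 and 11.1 FPKM in DMSO+Sham, and Cytl1 was 7.04 ± 1.98 FPKM in DMSO+AB and 8.79 ± 3.95 FPKM in DMSO+Sham (n = 3). The summed level of the list was 13.5 to 25.1 FPKM in DMSO+AB, 13.0 to 21.3 FPKM in DMSO+Sham, 16.4 to 22.6 FPKM in Hispidulin+Sham and 17.8 to 23.9 FPKM in Hispidulin+AB. Its part in the Fmod values was not tested.

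Prelp, which anchors basement membranes to collagen, was 12.6, 21.0 and 13.8 FPKM in DMSO+Sham (15.8 ± 4.54, n = 3) and 15.2, 40.9 and 40.6 FPKM in DMSO+AB (32.2 ± 14.7). Replicates 2 and 3 of DMSO+AB were high, and replicate 1 lay within the DMSO+Sham range. The log2 difference was 0.89 (SE 0.32, unadjusted p = 0.0175, adjusted p = 0.141 by limma). In the Hispidulin+Sham mice Prelp was 13.0, 16.7 and 16.0 FPKM, and in the Hispidulin+AB mice it was 16.1, 24.8 and 20.7 FPKM. The log2 difference of these overlapping groups was 0.40 (SE 0.32, adjusted p = 0.883 by limma).

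Lum, which spaces fibrils in the cornea and in other connective tissue, was 15.6, 29.3 and 8.57 FPKM in DMSO+Sham (17.8 ± 10.5, n = 3) and 24.5, 48.7 and 33.0 FPKM in DMSO+AB (35.4 ± 12.3). The groups overlapped through DMSO+Sham replicate 2, and the log2 difference was 1.05 (SE 0.37, adjusted p = 0.128 by limma). In the hispidulin groups Lum was 22.4, 28.6 and 32.8 FPKM after sham and 24.6, 42.6 and 28.1 FPKM after AB. These values overlapped widely, with a log2 difference of 0.16 (SE 0.37).

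Ogn, a class III member found in bone, vessel wall and heart matrix, did not pass in any comparison. It was 27.8, 35.6 and 13.5 FPKM in DMSO+Sham (25.6 ± 11.2, n = 3), 27.9, 42.2 and 36.7 FPKM in Hispidulin+Sham (35.6 ± 7.20), 29.3, 44.5 and 17.3 FPKM in DMSO+AB (30.4 ± 13.6) and 25.1, 34.9 and 29.7 FPKM in Hispidulin+AB (29.9 ± 4.88). Every pair of groups overlapped. The log2 difference averaged over both treatments was 0.00 (SE 0.25, 95% interval -0.54 to 0.55, adjusted p = 0.996 by limma), and the interval leaves room for a change of about this size in either direction.

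Between DMSO+AB and DMSO+Sham, 2 of the 7 genes (Bgn and Aspn) were higher at an adjusted p under 0.05 by limma and none was lower, against a background of 2.5% of all 11664 genes called higher and 2.71% called lower. At an unadjusted p under 0.05, 5 of 7 were higher (9.25% of all genes). All 7 log2 differences were above 0, as were 44.2% over all genes, and their median was 1.05 against -0.04 for all genes tested. The groups did not overlap for Bgn and Aspn (7.18% of all genes were higher with no overlap). Averaged over both treatments, limma called the same 2 genes, against 3.52% of all genes called higher and 3.87% called lower. The methods of the study call a gene where the adjusted p does not exceed 0.001 and the log2 difference is 1 or more in size. By limma 0 of the 7 genes met this in DMSO+AB against DMSO+Sham (0.0% of all genes) and 0 in the average over both treatments (0.0772% of all genes).

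Both calls in DMSO+AB against DMSO+Sham were lost when certain single libraries were left out. Bgn had a log2 difference of 1.72 and an adjusted p by limma of 0.0864 without DMSO+Sham replicate 1, 1.53 and 0.091 without DMSO+AB replicate 2, 1.58 and 0.082 without DMSO+AB replicate 3 and 1.53 and 0.193 without the 3 libraries high in atrial genes. Aspn lost its call when any DMSO+Sham library or replicate 2 or 3 of DMSO+AB was left out (adjusted p from 0.0552 to 0.115). Its log2 difference was 1.32 to 1.71 in 4 of these 5 fits and 0.93 without DMSO+AB replicate 2, as also without the 3 libraries (adjusted p = 0.177). Without DMSO+Sham replicate 2, Lum passed (log2 difference 1.47, adjusted p = 0.0185 by limma) as well as Bgn, in a fit that called 535 of 11639 genes higher. The Lum difference fell to 0.64 without DMSO+Sham replicate 3 (adjusted p = 0.297 by limma) and to 0.80 without DMSO+AB replicate 2 (adjusted p = 0.333). Without DMSO+AB replicate 1, by contrast, Bgn, Aspn, Fmod and Prelp all passed, with Fmod at a log2 difference of 3.53 (adjusted p = 0.000802 by limma). Calls over all genes also rose in that fit, to 564 higher and 389 lower of 11645, from 292 and 316 with all libraries. The Fmod difference was 1.48 without DMSO+AB replicate 2 (adjusted p = 0.345) and 1.48 without the 3 libraries (adjusted p = 0.441). In the average over both treatments Bgn kept its call in each of the 12 fits that left out 1 library (adjusted p from 0.000397 to 0.0424 by limma), but not without the 3 libraries (log2 difference 1.24, adjusted p = 0.132). Averaged Aspn lost its call in 7 of these 12 fits (adjusted p from 0.0548 to 0.0992 by limma) and without the 3 libraries (log2 difference 0.82, adjusted p = 0.099).

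**Figure D2:**
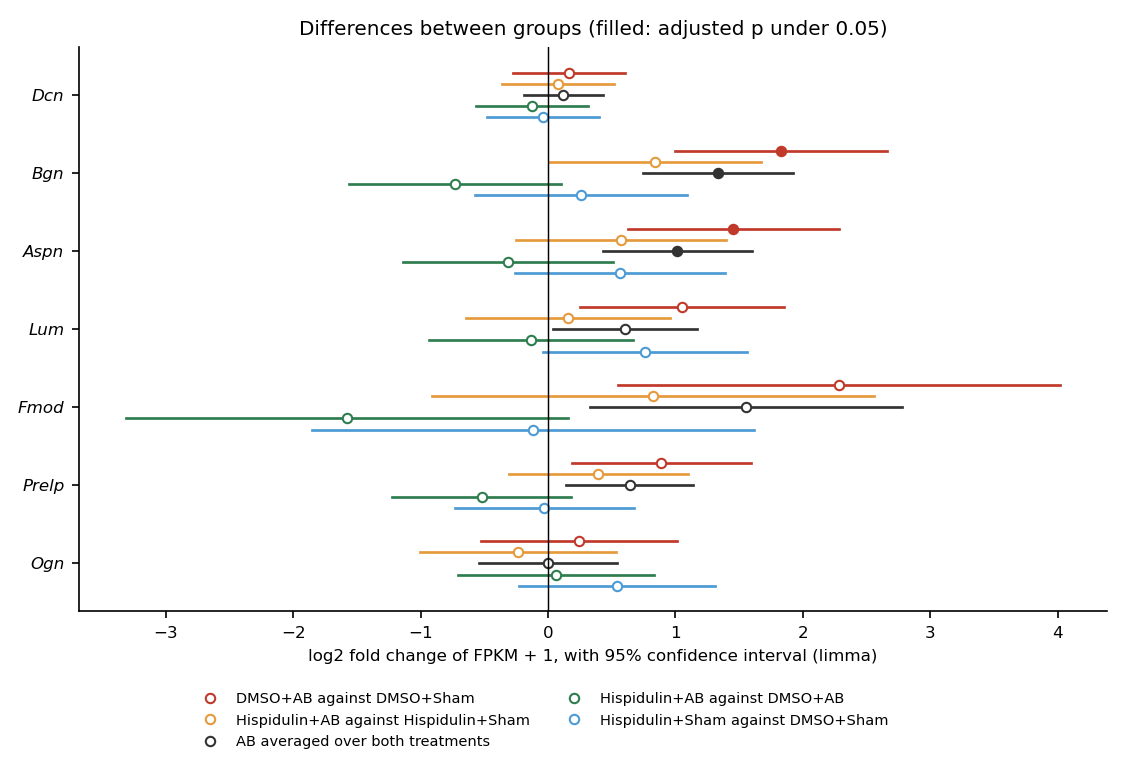
Log2 fold change of FPKM + 1 (horizontal axis, with the 95% confidence interval from limma) of each gene in 5 comparisons, with filled points at an adjusted p under 0.05. Filled points are seen only for Bgn and Aspn, for DMSO+AB against DMSO+Sham and for AB averaged over both treatments, and the green intervals of Hispidulin+AB against DMSO+AB include 0 for all 7 genes.

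Whether hispidulin altered these genes in banded hearts was asked by setting Hispidulin+AB against DMSO+AB. The log2 difference was above 0 for 1 of the 7 genes (51.4% of all genes) and below 0 for the other 6, but limma called 0 of 7 (0.0% of all genes, with 362 at an unadjusted p under 0.05). Fmod had the largest difference, -1.58 on the log2 scale (SE 0.80, 95% interval -3.31 to 0.16, unadjusted p = 0.0706, adjusted p = 0.996 by limma), followed by Bgn with -0.73 (SE 0.38, 95% interval -1.56 to 0.10, unadjusted p = 0.0806). Prelp differed by -0.52 (SE 0.32), Aspn by -0.32 (SE 0.38), Lum by -0.13 (SE 0.37), Dcn by -0.13 (SE 0.20) and Ogn by 0.06 (SE 0.35). For each of the 7 genes the 2 groups overlapped (4.23% of all genes were higher and 3.65% lower with no overlap), and DMSO+AB replicate 1 lay below the Hispidulin+AB range for 5 of them, by the widest ratio for Fmod (0.55 against 1.53 to 2.82 FPKM) and also for Bgn (153 against 159 to 258), Prelp (15.2 against 16.1 to 24.8), Dcn (262 against 273 to 379) and Lum (24.5 against 24.6 to 42.6). Without that library Fmod passed (log2 difference -2.83, adjusted p = 0.0214 by limma), in a fit where 20 of all 11645 genes passed (4 higher and 16 lower). The Fmod difference was -0.77 without DMSO+AB replicate 2, -1.14 without replicate 3 and -0.68 without the 3 libraries high in atrial genes. Bgn ran from -1.28 without DMSO+AB replicate 1 to -0.42 without replicate 2 and -0.40 without the 3 libraries. The sign count also depended on single libraries. Without DMSO+AB replicate 2, and without the 3 libraries, Dcn (0.10 and 0.13), Aspn (0.21 and 0.16) and Lum (0.12 and 0.18) were above 0. Lum was above 0 without Hispidulin+AB replicate 1 too (0.02), and Ogn was below 0 without DMSO+AB replicate 3 (-0.28) or Hispidulin+AB replicate 2 (-0.05). The DMSO+AB libraries enter both this comparison and that with DMSO+Sham, so that the signs in one are not independent of those in the other.

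The spread among banded mice was wider with DMSO than with hispidulin for each of the 7 genes, at SDs of 193 and 50.4 FPKM for Bgn, 12.7 and 0.728 FPKM for Fmod, 17.1 and 4.08 FPKM for Aspn and 14.7 and 4.33 FPKM for Prelp. The same held for 75.4% of all genes tested, and with 3 mice in each group it was not tested.

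In sham-operated hearts, limma called 0 of the 7 genes between Hispidulin+Sham and DMSO+Sham (0.0% of all genes, with 287 at an unadjusted p under 0.05). Lum had the largest difference (log2 0.76, SE 0.37, unadjusted p = 0.0612, adjusted p = 1.00 by limma), with DMSO+Sham replicate 3 lowest at 8.57 FPKM. Aspn differed by 0.57, Ogn by 0.54 and Bgn by 0.26, and Dcn, Prelp and Fmod by -0.04, -0.03 and -0.11. With 1 library left out, Lum ran from 0.35 to 1.18, Aspn from 0.37 to 0.81, Ogn from 0.15 to 0.82 and Bgn from 0.15 to 0.48. The group ranges overlapped for all 7 genes (2.77% of all genes were higher and 2.83% lower with no overlap). DMSO+Sham replicate 3 was the lowest of all 12 libraries for Bgn, Aspn, Lum and Ogn, and its macrophage markers summed to 368.8 FPKM, the highest of the 12 (167.4 to 325.2 in the others).

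AB against sham in the hispidulin-treated mice gave 0 of 7 calls by limma (0.0% of all genes, with 847 at an unadjusted p under 0.05). Over all genes 17 passed with the replicate number as a block, 209 with library weights and 51 in a fit of only the libraries compared, and 0 of the 7 genes passed in any of the 17 alternatives. The difference of the 2 AB effects, the interaction, was below 0 for each of the 7 genes (53.4% of all genes were above 0), from -1.46 for Fmod (SE 1.13) and -0.99 for Bgn (SE 0.54, unadjusted p = 0.0915) to -0.09 for Dcn (SE 0.29). Dcn was above 0 in 4 of 22 alternatives, at up to 0.29, and the other members were below 0 in every alternative. Across the alternatives Fmod ran from -2.71 to -0.25 and Bgn from -1.54 to -0.57. The 7 genes share the libraries, so their signs are not independent. Limma called 0 of 7 in the interaction (0.0% of all genes, with 289 at an unadjusted p under 0.05), and every adjusted p of the 7 was 1.00. The median difference after AB was thus 1.05 with DMSO and 0.40 with hispidulin, but that the effects differ was not shown.

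The library names carry numbers that fall into separate series, whose meaning is not stated. Within the series that holds 2 DMSO+AB mice and 1 DMSO+Sham mouse the log2 difference was 1.80 for Bgn, 1.99 for Aspn, 2.21 for Fmod and 1.36 for Ogn, and in the other series, with 1 mouse of each group, it was 1.90, 0.84, 2.50 and -0.998. In the same order the difference was 1.89 and 0.17 for Lum, 0.82 and 0.92 for Prelp and -0.01 and 0.15 for Dcn. Bgn, Aspn, Fmod, Lum and Prelp thus had 1 direction in both, and Dcn and Ogn did not. For Hispidulin+AB against DMSO+AB the differences were -0.46 (2 mice against 2) and -1.27 (1 against 1) for Bgn, -1.05 and -2.63 for Fmod, -0.62 and 0.30 for Aspn and -0.28 and 0.74 for Ogn, the last 2 genes with opposite signs. With the series as a covariate Bgn had a log2 difference of 1.76 and an adjusted p of 0.0795 by limma in DMSO+AB against DMSO+Sham. DMSO+Sham replicate 1 lies outside both series, so the covariate fits it exactly and it carries no weight in that fit.

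The make-up of the group of 7 shifted as Bgn rose beside a Dcn level that overlapped between groups. The ratio of Bgn to Dcn was 0.289, 0.422 and 0.223 in the DMSO+Sham mice and 0.346, 0.413 and 0.358 in the Hispidulin+Sham mice. It was 0.583, 1.07 and 1.42 in the DMSO+AB mice and 0.581, 0.68 and 0.64 in the Hispidulin+AB mice. All 6 AB mice were above all 6 Sham mice, and Bgn exceeded Dcn in DMSO+AB replicates 2 and 3 alone. Ratios were chosen after the values of both genes were seen and were not tested. Dcn made up 56.9% to 74.6% of the summed FPKM of the 7 genes in the Sham mice, 52.6%, 39.9% and 35.9% in the DMSO+AB mice and 49.8% to 53.4% in the Hispidulin+AB mice. Fmod relative to its class II relative Lum was 0.531 and 0.457 in DMSO+AB replicates 2 and 3 and 0.0662 or less in the other 10 mice.

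**Figure D3:**
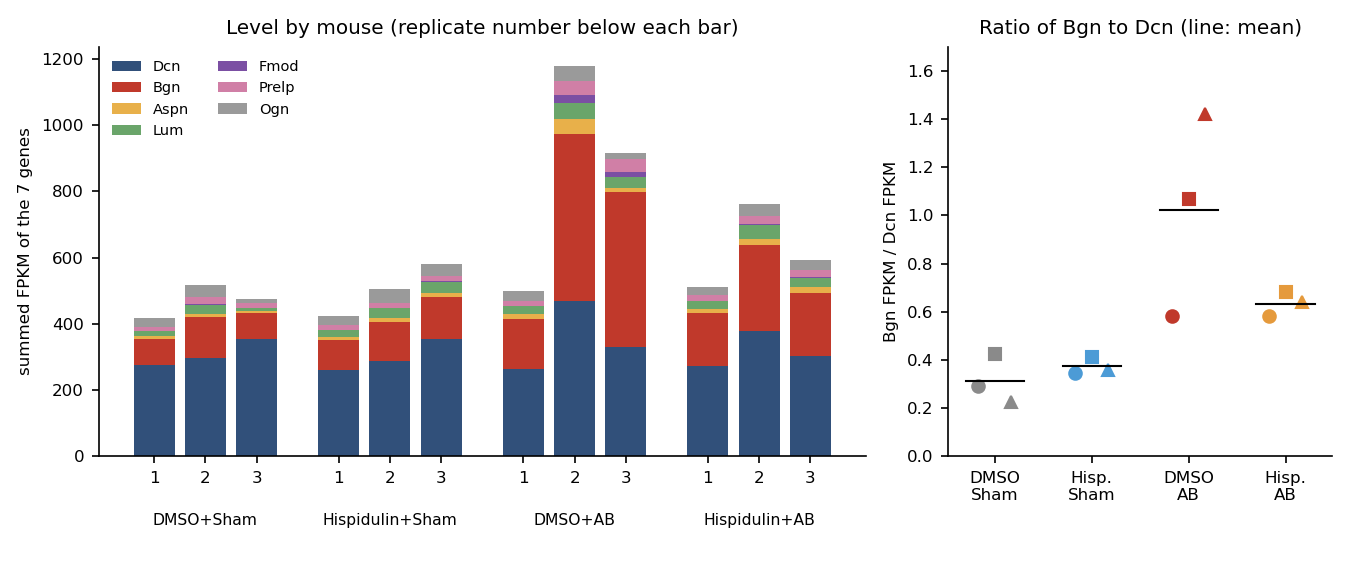
Left, summed FPKM of the 7 genes in each mouse, stacked by gene (bars from 0). Right, the ratio of Bgn to Dcn in each mouse with a line at the group mean. The sum reaches 1178 and 917 FPKM in DMSO+AB replicates 2 and 3 against 418 to 581 FPKM in the 6 Sham mice, most of the added height is Bgn, and all 6 AB mice have a ratio of at least 0.581 against at most 0.422 in the Sham mice.

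Across the 12 mice, DMSO+AB replicate 2 had the highest level of all 7 genes, and DMSO+AB replicate 3 and Hispidulin+AB replicate 2 were each among the 2 highest for 3 genes. By Pearson r the closest pairs were Bgn with Prelp (Pearson r = 0.955, Spearman rho = 0.839 over the 12 mice), Fmod with Prelp (r = 0.954, rho = 0.816) and Bgn with Fmod (r = 0.927, rho = 0.837). By Spearman rho Lum with Prelp (0.895) and Bgn with Aspn (0.881) were closer. Dcn with Lum, which are neighbours on chromosome 10, had r = 0.401 and rho = 0.615, and Aspn with Ogn on chromosome 13 had r = 0.531 and rho = 0.490. Ogn stood apart, with r from 0.113 to 0.172 against Dcn, Bgn, Fmod and Prelp and 0.706 against Lum. The points share the 4 group means and the libraries, so these values describe the mice and are not tests.

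Of the 12 other genes of the leucine-rich repeat family, Kera was not analysed here, and 6 (Epyc, Optc, Podnl1, Chad, Chadl and Nyx) lay below the filter, at 1.84 FPKM or less in every mouse. Of the 5 that were tested, Tsku, which encodes a secreted modulator of growth factor signalling, rose in DMSO+AB (2.59 ± 0.225 against 1.19 ± 0.0493 FPKM in DMSO+Sham, n = 3, log2 difference 0.71, adjusted p = 0.026 by limma). Omd, which lies between Aspn and Ogn, was 0.6 FPKM in DMSO+Sham and 1.62 FPKM in DMSO+AB (adjusted p = 0.242), and Ecm2, on the other side of Aspn, was 6.21 and 8.73 FPKM (adjusted p = 0.451). Podn differed by -0.21 and Nepn by 0.03 on the log2 scale (adjusted p = 0.591 and 0.925). Optc, the neighbour of Prelp, and Epyc, of the Dcn cluster, were at 0.23 and 0.24 FPKM or less.

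The tested genes that build the sugar chains of these proteins did not pass at the settings used for the other calls. For chondroitin and dermatan sulphate, 0 of 17 tested genes were called by limma (2 without DMSO+Sham replicate 2 or DMSO+AB replicate 1, and 3 with library weights), with a median log2 difference of 0.20 between DMSO+AB and DMSO+Sham. Fam20b, the xylose kinase of the linkage region and the most abundant of them, was 25.6 ± 0.606 FPKM in DMSO+AB and 26.4 ± 2.25 FPKM in DMSO+Sham (n = 3, adjusted p = 0.843). For keratan sulphate, 0 of 3 tested genes were called, with B4galt4, a galactosyltransferase, at 9.56 and 9.94 FPKM. Among other proteoglycans 1 of 15 tested was higher, namely Vcan (versican, a large chondroitin sulphate proteoglycan of provisional matrix), at 6.85 ± 1.93 against 2.69 ± 1.39 FPKM (log2 difference 1.14, adjusted p = 0.035 by limma). The median of that list was 0.13.

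Of 16 listed collagen genes (fibrillar, fibril-associated and collagen VI) the 10 tested were each higher in mean after AB in DMSO-treated mice. Of these 10 genes 3 passed, with a median log2 difference of 1.47. Col1a1 was 57.8 ± 30.2 against 15.0 ± 9.91 FPKM (log2 difference 1.86, adjusted p = 0.0407 by limma), Col5a2, a chain that sets fibril width, 14.3 ± 6.28 against 3.82 ± 1.11 FPKM (1.61, adjusted p = 0.0121) and Col1a2 69.0 ± 34.6 against 21.0 ± 9.76 FPKM (1.60, adjusted p = 0.0464). Of 9 genes for processing or cleavage of matrix proteins 4 passed. Bmp1, the protease that removes the propeptide of biglycan and of procollagen I, was 14.5 ± 1.63 against 9.63 ± 1.27 FPKM (0.54, adjusted p = 0.0269), its enhancers Pcolce and Pcolce2 rose by 1.25 and 1.03 (adjusted p = 0.0236 and 0.0206), and Mmp2, a gelatinase, rose by 1.54 (adjusted p = 0.0416).

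Among ligands and receptors of these proteins 4 of 15 passed, all of them ligands. Ccn2 (connective tissue growth factor) rose by 1.81 on the log2 scale (281 ± 44.6 against 83.4 ± 36.4 FPKM, adjusted p = 0.0106 by limma), Tgfb2 by 1.36 (adjusted p = 0.00376) and Tgfb3 by 0.84 (adjusted p = 0.0431). Tgfb1 rose by 0.59 (adjusted p = 0.0268). The receptors Tlr2 and Tlr4, through which biglycan can act, differed by -0.07 and 0.30 (adjusted p = 0.910 and 0.619). In the list of TGF-beta signalling 3 genes rose and 1 fell of 15 tested. Ltbp2, a matrix protein of the latent TGF-beta binding family, rose from 0.467 ± 0.298 to 10.7 ± 8.56 FPKM (log2 difference 2.60, adjusted p = 0.0232), its relative Ltbp4 rose by 1.10 (adjusted p = 0.0412), and Smad3, a signal transducer, fell by 0.57 (adjusted p = 0.0144). Between Hispidulin+AB and DMSO+AB, limma called 0 genes of every list named here.

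The counts of these lists in DMSO+AB against DMSO+Sham changed with the libraries used. With 1 library of these groups left out, the collagens that passed numbered 0 to 10 (3 with all), the processing genes 0 to 4 (4), the ligands and receptors 2 to 5 (4), the TGF-beta signalling genes 0 to 4 (4), the other proteoglycans 0 to 6 (1) and the other leucine-rich repeat genes 0 to 2 (1). No collagen passed without DMSO+Sham replicate 1 or DMSO+AB replicate 2, 1 passed without DMSO+Sham replicate 3 or DMSO+AB replicate 3, 8 passed without DMSO+AB replicate 1 and all 10 without DMSO+Sham replicate 2. Without the 3 libraries high in atrial genes 1 of the ligands and receptors passed and 0 genes of the other 5 lists.

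**Figure D4:**
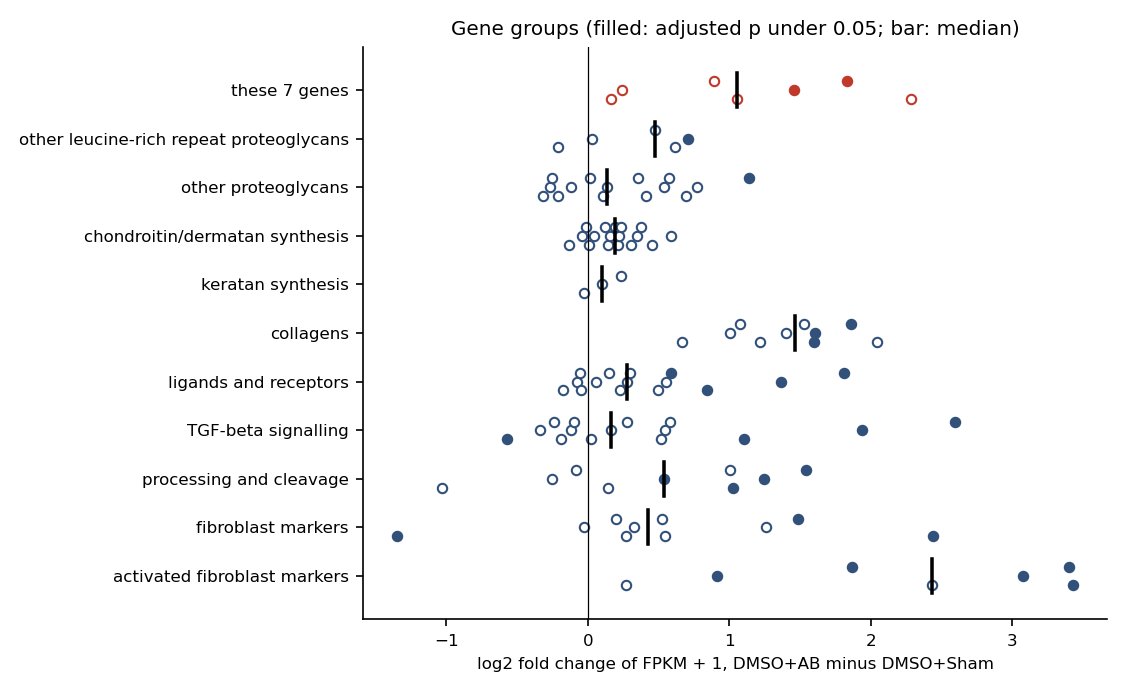
Log2 fold change of FPKM + 1 between DMSO+AB and DMSO+Sham (horizontal axis) for each tested gene of 11 gene groups, with filled points at an adjusted p under 0.05 by limma and a bar at each group's median. The medians are 1.05 for the 7 genes, 1.47 for the collagens, 2.43 for activated fibroblast markers and between 0.10 and 0.54 for the other 8 groups.

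Some fibroblast markers changed in the same comparison, and their part in the results was not tested. Of 10 general fibroblast markers 2 rose (Mfap5 by 2.44, adjusted p = 0.00674, and Pi16 by 1.49, adjusted p = 0.0265) and Scara5 fell by 1.35 (adjusted p = 0.0151) in DMSO+AB by limma. The defining markers Pdgfra (5.92 ± 0.536 FPKM in DMSO+Sham, 7.33 ± 0.553 in DMSO+AB, n = 3) and Tcf21 (4.76 ± 1.52 and 7.42 ± 2.18) had adjusted p of 0.216 and 0.199. All 3 DMSO+AB mice were above all 3 DMSO+Sham mice for Pdgfra (6.84 to 7.93 against 5.46 to 6.51 FPKM), and none of the 10 was at 0. The list summed to 139.1 to 183.9 FPKM in DMSO+Sham, 186.8 to 213.7 in Hispidulin+Sham, 207.2, 460.3 and 381.3 in DMSO+AB and 219.2 to 264.9 in Hispidulin+AB. The 2 markers that rose together averaged 47.5 FPKM in DMSO+Sham and 213.5 in DMSO+AB. Of the 10 markers 8 had a log2 difference above 0, with a median of 0.42. Fibroblast markers that passed numbered 1 to 5 with 1 library left out and 0 without the 3 libraries high in atrial genes.

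Of 7 tested markers of activated fibroblasts 5 rose in DMSO+AB, against 1 without DMSO+Sham replicate 1, DMSO+AB replicate 2 or DMSO+AB replicate 3, 1 without the 3 libraries and 0 in a fit of only the libraries compared. Cilp rose by 3.43 (adjusted p = 0.0224 by limma), Thbs4 by 3.41 (adjusted p = 0.0247) and Postn by 3.08 (adjusted p = 0.0197), and Meox1 and Tnc passed as well. The list summed to 14.3 to 28.1 FPKM in the 6 Sham mice, to 56.1, 423.0 and 232.8 in DMSO+AB and to 45.3, 98.4 and 77.4 in Hispidulin+AB, with replicate 2 highest and replicate 1 lowest in each AB group, an order found also for each of the 7 genes but Ogn. None of 9 smooth muscle and pericyte, 6 endothelial and 8 macrophage markers was called, and 3 of 10 cardiomyocyte markers (Atp2a2, Pln and Ryr2) fell, by 0.68, 0.62 and 0.59 (0 to 3 markers with 1 library left out, 0 without the 3 libraries). Of the other lists, 0 genes were called among atrial (3 tested), mesothelial (3), valve and tendon (2), adipocyte (1) and erythroid (4) markers.

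The genes outside the 7 whose pattern over the 12 mice was most like the mean of the 7 (z-scored log2 values) were Ccdc80 (r = 0.972), Itih5 (0.971), Sh3d19 (0.965), Sfrp2 (0.961), Prkag2 (0.955), Lhfp (0.950), Pdgfrl (0.950), Ctsk (0.947), Ppic (0.944) and C1qtnf5 (0.943). Each of the 7 genes was set against the mean of the rest of the 7 instead. There r was 0.821 to 0.890 for Bgn, Aspn, Lum, Fmod and Prelp, 0.634 for Dcn and 0.343 for Ogn. These r values have a different target from those above. Ccdc80, which encodes a secreted matrix protein, was 20.2, 25.6 and 19.5 FPKM in DMSO+Sham, 22.7, 25.8 and 31.9 in Hispidulin+Sham, 26.8, 56.1 and 35.9 in DMSO+AB and 30.2, 36.5 and 33.6 in Hispidulin+AB. Like the 7 genes it was highest in DMSO+AB replicate 2. DMSO+AB replicate 2 and DMSO+Sham replicate 3 lay farthest from the median of the mean of the 7. Over the other 10 mice r was 0.842 to 0.955 for the genes outside the 7. Against the rest of the 7 it was 0.68 to 0.875 for Bgn, Aspn, Lum, Fmod and Prelp, 0.796 for Dcn and -0.294 for Ogn. None of the 10 genes outside the 7 passed in DMSO+AB against DMSO+Sham by limma, with Pdgfrl nearest (log2 difference 1.47, adjusted p = 0.0533) and Ccdc80 at 0.78 (adjusted p = 0.0656).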

How the data were processed

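Left ventricular mRNA was sequenced as single-end reads of 50 bases on a BGISEQ-500. The submitters' processing notes name HISAT2 2.0.4, Bowtie2 2.2.5, RSEM 1.2.12 and DESeq2 1.4.5, and the genome build is not given in the sources used here. The authors deposited FPKM per gene and mouse, rounded to 0.01, and their read counts were not used here. Steps between low FPKM values gave no whole reads (18.6% of 20524 ratios within 0.1 of a whole number, 20% if evenly spread), so the depth is unknown and no counting error is given. RefSeq symbols were found for 17947 of 18079 gene IDs (99.3%).

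Values were taken as log2(FPKM + 1), and the 11664 genes that reached 1 FPKM in 3 or more libraries were tested with limma 3.58.1 in R 4.3.3 (1 mean per group, all 12 libraries, eBayes with trend, two-sided, Benjamini-Hochberg over all genes tested). Of the 12 other leucine-rich repeat family genes and the other lists, those below the filter were not tested. Log2 differences understate changes of low genes. Exact permutation tests, ratios, motif counts and figures were made in Python 3.11.15. The limma step was tested on simulated data. The members and the gene lists were chosen with earlier results of these data known. Named genes were the 7 members, per list those that passed with the largest difference, up to 3 higher and 2 lower (otherwise the most abundant gene), the leucine-rich repeat family and the 10 genes most like the members; Tgfb1, Bmp1, Tlr2, Tlr4, Ryr2, Pdgfra, Tcf21, Meox1, Tnc and the marker values beside Fmod were added after their values were seen, as were the pressure-response genes. Marker lists without a call are given by their counts. The values of 1 gene that met the rule are not reported here. The number in the library name of DMSO+Sham replicate 1 lies outside both series.

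Same-numbered libraries are from different mice. Deviations of same-numbered libraries correlated by 0.147, 0.197 and 0.228 in Hispidulin+AB and Hispidulin+Sham. In Hispidulin+Sham and DMSO+Sham they correlated by 0.126, 0.33 and 0.232. No label states a pairing, and same-numbered Hispidulin+AB and Hispidulin+Sham libraries fall in different number series. Whether the numbers pair libraries is thus not known. The fit with the number as a block is an alternative, given beside the results of these 2 comparisons where it changed a count. Each library is from 1 mouse, and p-values measure the spread between these mice. Alternatives were only the libraries compared, 0.1 as the added value, library weights, a filter at 5 FPKM or none, quantile normalization or scaling by median of ratios, eBayes without the trend, the series of numbers in the library names as a covariate, the replicate block, each library left out in turn and, added after seeing the data, the 3 libraries high in atrial genes left out.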

Additional observations from a re-analysis of the deposited data

How the results depend on the processing

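In DMSO+AB against DMSO+Sham 2 of the 7 genes passed, and the count was 1 with no filter and with no trend, 5 with library weights (Bgn, Aspn, Lum, Fmod and Prelp), and 0 with the series of numbers in the library names as covariate, with only the libraries compared and without the 3 libraries high in atrial genes. Leaving out 1 library at a time gave 0 to 4. It was 0 without DMSO+Sham replicate 1, DMSO+AB replicate 2 or DMSO+AB replicate 3, 1 without DMSO+Sham replicate 3, 2 without DMSO+Sham replicate 2 (Bgn and Lum) and 4 without DMSO+AB replicate 1. For AB averaged over both treatments (2 genes) the count was 1 with no filter and with the series as a covariate, 5 with library weights, 0 without the 3 libraries, and 1 to 4 with 1 library left out, again 4 without DMSO+AB replicate 1. The criteria of the study (0 genes) were met by 0 to 2 genes with 1 library left out in both comparisons, the 2 (Bgn and Fmod in DMSO+AB against DMSO+Sham) appearing without DMSO+AB replicate 1. For Hispidulin+AB against DMSO+AB (0 genes) the range was 0 to 1, with Fmod passing without DMSO+AB replicate 1. Of all 11645 genes tested in that fit 20 passed, 4 higher and 16 lower. Bgn kept its direction in all 17 alternatives of DMSO+AB against DMSO+Sham, with a log2 difference of 1.53 to 2.38 and an adjusted p by limma of 0.0005 to 0.193, and Aspn did so too, with 0.93 to 1.73 and 0.0176 to 0.197. Dcn and Ogn, with differences near 0, changed sign in 2 and 3 of the 17. Fewer libraries are part of the alternatives that leave libraries out and of the fit of only the libraries compared. DMSO+Sham replicate 1 is alone in its number, so the series covariate fits it exactly and it carries no weight there. The cause of the other moves was not tested. Over all genes, calls in DMSO+AB against DMSO+Sham numbered 608, and 1423 with library weights. They numbered 142 with the series as a covariate, 11 with only the libraries compared and 20 without the 3 libraries. In these alternatives 45.8% to 75.0% of the calls were higher, against 48.0%. With 1 library left out the calls numbered 91 to 1050, and 953 without DMSO+AB replicate 1.

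With the replicate number as a block, 3 of the 7 genes passed in DMSO+AB against DMSO+Sham and in AB averaged over both treatments, Prelp being added (adjusted p = 0.0424 and 0.0315 by limma), and no other call on the 7 changed. Same-numbered libraries of DMSO+AB and DMSO+Sham correlated by -0.0239, -0.0443 and -0.198. Those of Hispidulin+AB and DMSO+AB correlated by 0.3, 0.176 and -0.183 and share a number series at each replicate number. No label pairs the libraries by replicate number. The block also raised the collagens that passed in DMSO+AB against DMSO+Sham from 3 to 8 of 10. The limits are the 3 mice per group, the unknown depth, which leaves Fmod in the Sham mice (0.28 to 1.84 FPKM) without a counting error, bulk tissue, and mRNA levels that say nothing of the proteins or their sugar chains.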
